A study of Mus musculus with 6 samples.

Results

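The 38 genes described here code for proteins that build ribosomes. They are taken by name from the pathway, and each was read from every probe set that the array's annotation gives to that gene alone. They are 38 of the 18193 genes with such a probe set, and they hold 78 of the 45101 probe sets on the array. Expression was compared between 3 arrays from Eklf -/- embryos and 3 arrays from wild-type embryos. Eklf, also called Klf1, is a zinc finger transcription factor that red cell precursors need to mature. All embryos were C57BL/6 per the labels and were taken at day 13.5 of gestation, when the liver is the main site of blood formation. Early erythroid progenitors were sorted from dissociated livers by staining for CD71 and Ter119, surface markers whose levels change as red cells mature, with 7AAD to mark dead cells. The knockout is of the whole embryo and is not limited to the sorted cells. The labels call the RNA samples independent, with 1 fetal liver behind each. The p-values measure the spread between these 6 samples, and the number of arrays limits their precision.

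Ribosome biogenesis starts in the nucleolus, where RNA polymerase I copies the ribosomal DNA into one long precursor RNA. Small nucleolar ribonucleoproteins then guide the chemical modification of this RNA, box C/D particles for methylation and box H/ACA particles for pseudouridylation, while assembly factors fold it, cut it and add ribosomal proteins to form the small and large subunits. The pathway is highly active in dividing progenitors, is driven in part by the transcription factor Myc, and is shut down as erythroblasts mature. Inherited defects in it are known to cause anaemia.

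Several measurements of the arrays as a whole bear on every value below. Klf1 itself had signals of 3505, 1391 and 2545 on the knockout arrays, against 2508, 2706 and 4030 on the wild-type arrays. The groups overlapped (log2 difference -0.38 ± 0.32 SE, adjusted p = 0.347; exact two-sided permutation p = 0.5, the smallest possible being 0.1). Which part of the gene its probe set covers is not given in the sources used here, so the probe set does not check the genotypes, and groups are called by their labels throughout. Each array had been scaled to the same trimmed mean of 500, yet the median signals were 204 to 218 on the knockout arrays and 97.7 to 140 on the wild-type arrays. The 9 hybridisation control probe sets, for RNA spiked in at a fixed amount, read 1.34, 3.18 and 3.80 times the wild-type mean on the knockout arrays, against 0.926 to 1.08 times on the wild-type arrays. The 3′ probe set for 18S ribosomal RNA read 30195, 58481 and 60652 on the knockout arrays, against 187, 141 and 54 on the wild-type arrays. Markers of cell types, the sorted red cell lineage among them, moved as well. Of 16 hepatocyte markers tested, all 16 passed the test as higher, with summed signals of 131714 to 208022 on the knockout arrays against 8898 to 9619 on the wild-type arrays. Of 9 lymphoid markers, 8 were lower (875 to 1547 against 22295 to 33106), and of 9 stem and progenitor markers, 7 were lower and 1 was higher (8350 to 9008 against 24893 to 25647). Among erythroblast markers 8 of 9 were higher (72076 to 97755 against 23935 to 27490), as were 8 of 9 megakaryocyte markers (33214 to 43325 against 7554 to 8656). The erythroblast markers, like the Klf1 probe set, do not check the genotypes. Macrophage markers were higher in 7 and lower in 1 of 9 (10767 to 14725 against 10308 to 12764), and neutrophil markers were lower in 6 of 9 (96342 to 200829 against 181861 to 211092). No marker listed read 0 in either group, but only 303 values in the whole table were under 1. A reading above 0 therefore does not show that a cell type was present. The part of the scaling and of these cell types in the results below was not tested. In such bulk samples fewer cells of a type and less RNA per cell cannot be told apart.

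**Figure D1:**
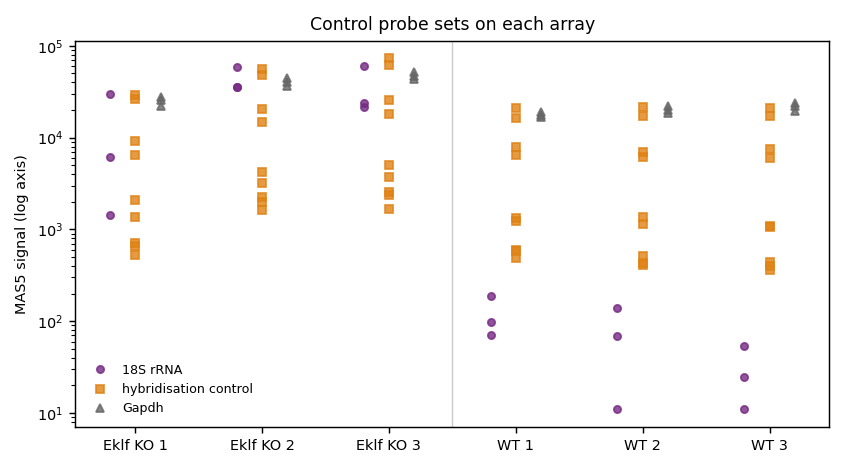
Signal of the 18S ribosomal RNA, hybridisation control and Gapdh probe sets on each array, 1 point per probe set, on a log axis, with the Eklf -/- arrays left of the wild-type arrays. The 3′ 18S probe set read 30195 to 60652 on the knockout arrays and 54 to 187 on the wild-type arrays.

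More ribosome biogenesis genes fell than rose in the knockout. Of the 38 genes, 14 fell, 3 rose and 21 did not pass the test, which was limma's moderated test over 12799 genes at an adjusted p under 0.05, with each gene represented by its brightest probe set. Over all genes tested, 20.8% fell and 27.9% rose, against 36.8% and 7.89% of the 38. The groups did not overlap for 17 genes that were lower (25.2% of all genes were lower without overlap) and for 3 that were higher (34.1% of all genes). The median log2 difference of the 38, knockout minus wild type, was -0.40, with 29 genes below 0 and 9 above, and the median of all genes was 0.14.

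The 38 genes are bright on this array, and bright genes in general were more often lower. With the genes tested parted into 4 equal bins of brightness, the top bin holds 19 of the 38, and in it 35.3% fell, 15.1% rose and the median difference was -0.25. In the next bin, which holds 17 of them, 27.9% fell, 16.8% rose and the median was -0.13. In the dimmest bin, which holds 0 of them, 44.6% rose, 5.72% fell and the median was 0.94. The share of the 38 that fell was thus near that of the brightest genes, while the 3 that rose, 7.89%, stood beside shares of 15.1% and 16.8%.

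The count of 14 depended on single arrays and on the scaling. Leaving out Eklf -/- array 1 gave 19 lower genes, and leaving out Eklf -/- array 2 or array 3 gave 6 and 7. Leaving out wild-type array 1, 2 or 3 gave 8, 9 and 14. With Eklf -/- array 1 as the only knockout array, a setting added after the data were seen, 3 genes were lower. Centring each array on its median gave 32 lower and 1 higher, scaling to the hybridisation controls gave 29 lower and 0 higher, and quantile normalization gave 8 lower and 3 higher. The median of the 38 minus the median of all genes was -0.54 in the deposited scaling and -0.79 to -0.22 over the 20 alternatives.

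**Figure D2:**
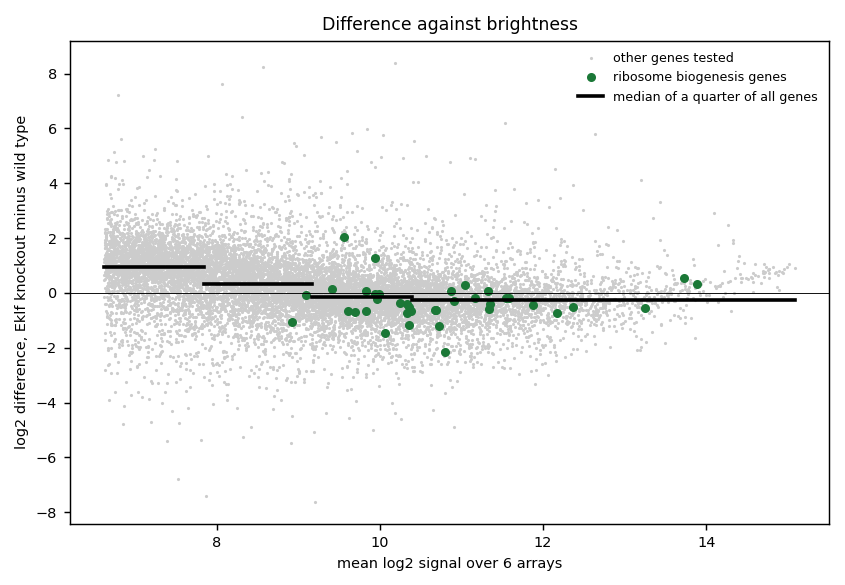
Log2 difference (Eklf -/- minus wild type) against mean log2 signal for all genes tested (grey), with the 38 ribosome biogenesis genes in green and black lines at the median of each of 4 equal bins of brightness. The 38 lie in the brighter part of the range, 19 of them in the top bin, whose median is -0.25.

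The knockout arrays were not alike for these genes. The geometric mean signal of the 38 was 1867, 1362 and 1476 on the knockout arrays, against 2038, 2019 and 1814 on the wild-type arrays. Knockout array 1 had the highest signal of its group for 28 of the 38 genes, and knockout array 2 had the lowest for 22. Over all 38 genes, knockout array 1 minus the mean of the other 2 knockout arrays had a median of 0.42 on the log2 scale. Knockout array 1 was also the one with the lowest hybridisation controls and the lowest 18S signal of its group. Among the wild-type arrays, array 3 was lowest for 19 genes and highest for 15, with a median of -0.06 against the other 2 arrays.

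**Figure D3:**
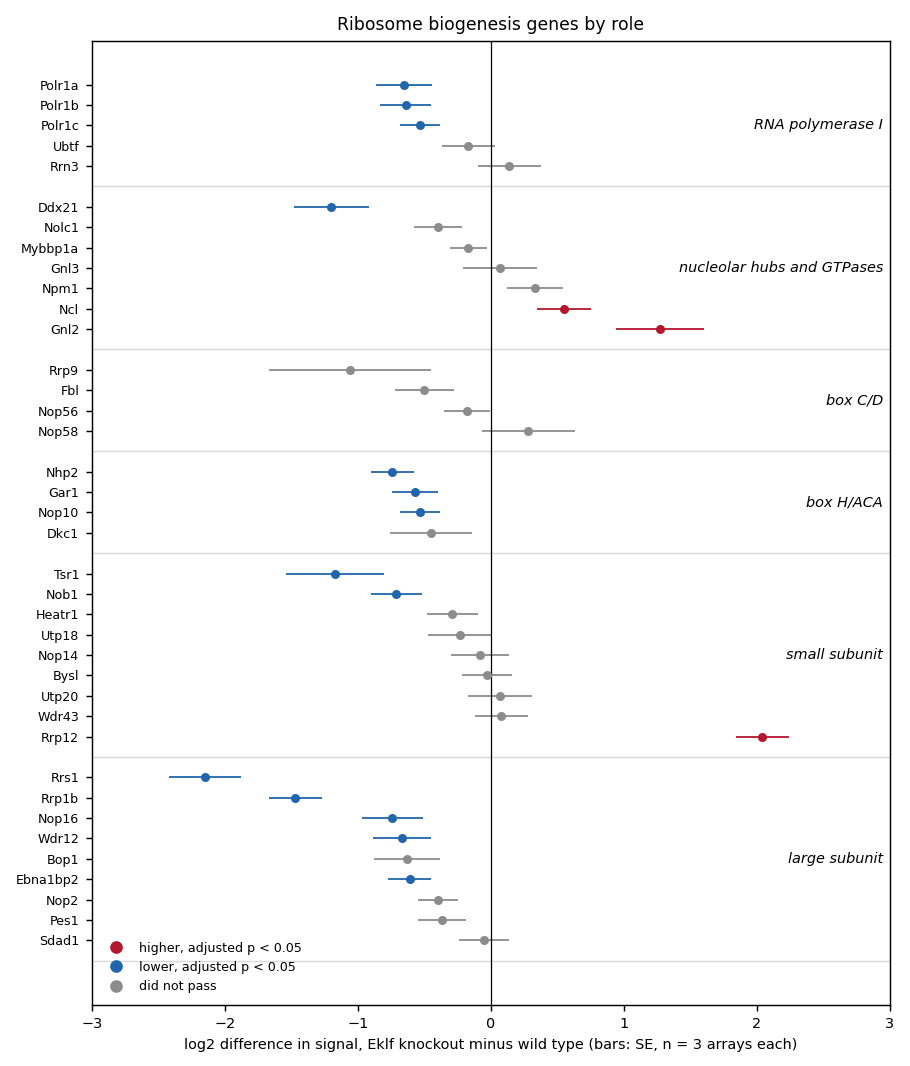
Log2 difference (Eklf -/- minus wild type) of each of the 38 genes with its SE as a bar, grouped by role, red where higher and blue where lower at an adjusted p under 0.05 and grey otherwise. The 9 large subunit genes all lie below 0, and Rrp12 (2.04) and Gnl2 (1.27) are the 2 genes above 1.

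Promoters of 32 of the 38 genes, 40 in all, were matched in the RefSeq table used (build GRCm38.p6), and those of Rrs1, Rrp12, Gnl2, Fbl, Npm1 and Bop1 are not shown here. The 250 bases before each start were searched on both strands, with overlaps allowed, for CACGTG, the E-box bound by Myc, and for CCNCNCCC, a CACCC-type box of the kind that Eklf binds. CACGTG was found in 3 of the 40 (7.5%), against 6.02% of 32851 promoters of all genes, and in 0 of the 16 promoters of genes that fell. CCNCNCCC was found in 22 of the 40 (55%), against 45.9% of all promoters. It stood in 6 of the 16 promoters of genes that fell (37.5%) and in 15 of the 23 of genes that did not pass the test (65.2%). A match describes the letters only. The promoters of the 4 genes with the smallest adjusted p that hold either motif are printed here 5′ to 3′ on the gene's strand, so that the stretches can be read beside the signals below. Capitals mark CCNCNCCC or its reverse complement. In Ebna1bp2 a pair of overlapping matches forms one run of capitals.
Rrp1b, chr17:32035912-32036161, plus strand: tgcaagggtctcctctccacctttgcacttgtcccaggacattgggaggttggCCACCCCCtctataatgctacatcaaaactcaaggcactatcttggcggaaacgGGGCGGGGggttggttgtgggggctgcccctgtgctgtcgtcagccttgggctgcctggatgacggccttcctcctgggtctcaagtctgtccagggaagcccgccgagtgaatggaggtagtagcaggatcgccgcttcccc
Nhp2, chr11:51619523-51619772, plus strand: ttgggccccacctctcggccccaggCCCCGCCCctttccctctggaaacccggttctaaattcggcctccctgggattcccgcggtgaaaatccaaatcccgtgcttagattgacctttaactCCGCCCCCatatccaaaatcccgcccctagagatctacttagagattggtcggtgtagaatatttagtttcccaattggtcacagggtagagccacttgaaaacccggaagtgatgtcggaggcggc
Ebna1bp2, chr4:118620549-118620798, plus strand: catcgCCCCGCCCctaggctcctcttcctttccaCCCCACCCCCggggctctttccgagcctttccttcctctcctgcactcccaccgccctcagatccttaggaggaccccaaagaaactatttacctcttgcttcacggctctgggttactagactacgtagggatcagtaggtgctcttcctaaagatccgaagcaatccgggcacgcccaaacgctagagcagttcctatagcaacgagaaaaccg
Polr1c, chr17:46248046-46248295, minus strand: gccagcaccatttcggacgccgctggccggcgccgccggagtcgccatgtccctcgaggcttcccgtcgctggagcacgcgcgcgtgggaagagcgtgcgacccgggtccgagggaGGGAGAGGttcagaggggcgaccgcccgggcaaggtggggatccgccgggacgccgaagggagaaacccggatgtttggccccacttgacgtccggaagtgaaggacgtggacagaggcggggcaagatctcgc

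The counts by role below stand beside 20.8% of all genes tested that fell, and 35.3% and 27.9% in the 2 brighter bins. Of the 5 genes of RNA polymerase I, each read from its brightest probe set, 3 fell, 0 rose, and the median difference was -0.53. For Polr1c, Polr1a and Ubtf other probe sets of the gene read differently. Polr1c, a subunit shared with RNA polymerase III, had signals of 1048, 1139 and 1092 on the knockout arrays, against 1513, 1501 and 1712 on the wild-type arrays. All 3 knockout arrays were below all 3 wild-type arrays, with means of 1093 ± 45.2 and 1575 ± 118 (SD, n = 3 each) and a log2 difference of -0.53 ± 0.15 (SE, adjusted p = 0.0185). Its other probe set had 1212, 1358 and 1034 on the knockout arrays, against 1060, 1023 and 1261 on the wild-type arrays. There the groups overlapped (0.11, adjusted p = 0.652), and the average of both probe sets, -0.21, did not pass (adjusted p = 0.289). Polr1b, read by 1 probe set, the second largest subunit, had 894, 620 and 697 on the knockout arrays, against 1089, 1125 and 1205 on the wild-type arrays. Here too the groups were apart, and the log2 difference was -0.64 ± 0.19 (adjusted p = 0.0186). Polr1a, the largest catalytic subunit, had 824, 574 and 516 on the knockout arrays, against 938, 1004 and 997 on the wild-type arrays, a log2 difference of -0.65 ± 0.21 (adjusted p = 0.0286).

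Polr1a was the only one of the 38 genes with probe sets that passed the test in opposite directions. One of its other probe sets had 740, 750 and 738 on the knockout arrays, against 482, 557 and 532 on the wild-type arrays, with a difference of 0.51 (adjusted p = 0.045 over all probe sets). A further probe set had 81.5, 68.4 and 93.4 on the knockout arrays, against 384, 413 and 451 on the wild-type arrays, with a difference of -2.37 (adjusted p = 0.000343). Averaged over all 5 of its probe sets, the gene's difference was -0.19 (adjusted p = 0.634). That average takes in probe sets too dim to be tested alone, with differences of 1.57 and 0.01. Which transcripts each probe set reads is not known from the files. Polr1a is counted among the genes that fell by its brightest probe set alone, and its probe sets together give no single direction. The factors that recruit and start the polymerase did not pass the test. Ubtf, an HMG-box protein that covers the ribosomal DNA, had a difference of -0.17 (95% interval -0.61 to 0.27). Rrn3, which links the polymerase to growth signals, had 0.14 (-0.41 to 0.68). A second probe set of Ubtf, at 0.55, did not pass either (adjusted p = 0.102 over all probe sets).

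Box H/ACA proteins, the core of the particles that turn uridine into pseudouridine, were lower in 3 of 4 cases, with a median of -0.55. All 4 lie in the top bin of brightness, where 35.3% of all genes fell. Nhp2, an RNA-binding core protein, had 4159, 3453 and 3132 on the knockout arrays, against 5782, 5414 and 6752 on the wild-type arrays. The groups did not overlap, with means of 3581 ± 525 and 5982 ± 691 (SD, n = 3 each) and a difference of -0.74 ± 0.16 (SE, adjusted p = 0.00554). Its other probe set, at -0.44, did not pass. Nop10, the smallest core protein, had 8700, 7225 and 8314 on the knockout arrays, against 11017, 11177 and 12840 on the wild-type arrays, a difference of -0.53 ± 0.15 (adjusted p = 0.0159). Its other probe set gave the same direction, with 6110, 4698 and 4719 on the knockout arrays, against 9195, 9077 and 11125 on the wild-type arrays (-0.93, adjusted p = 0.00248). Nop10 was one of only 2 genes of the 38, with Rrs1, that had several probe sets above the filter on dim signal and all of them lower. Gar1 also fell (-0.57 ± 0.17, adjusted p = 0.0196). Dkc1, the pseudouridine synthase itself, had 4487, 2566 and 2895 on the knockout arrays, against 5636, 5676 and 2663 on the wild-type arrays. Wild-type array 3 sat among the knockout arrays, and the difference of -0.45 (95% interval -1.16 to 0.26) did not pass the test.

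For the box C/D proteins, which carry out ribose methylation, 0 of 4 passed the test, and the median was -0.34. Fbl, the methyltransferase fibrillarin, had 5486, 3837 and 4155 on the knockout arrays, against 4825, 6359 and 7979 on the wild-type arrays. Knockout array 1 exceeded wild-type array 1, and the difference was -0.50 ± 0.22 (adjusted p = 0.0829). Its other probe set, also at -0.50, passed the test over all probe sets (adjusted p = 0.0459). Rrp9, a protein of the U3 particle, had 850, 106 and 427 on the knockout arrays, against 661, 769 and 678 on the wild-type arrays. The knockout arrays spread on both sides of the wild-type arrays, and the interval of the difference ran from -2.42 to 0.31. The scaffold proteins Nop56 (-0.18) and Nop58 (0.28) did not pass the test either, with intervals of -0.56 to 0.20 and -0.49 to 1.06.

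The 9 large subunit assembly factors all had differences below 0. Of these, 5 fell, 0 rose, and the median was -0.63. The top bin of brightness holds 3 of the 9 and the next 6. In these bins 35.3% and 27.9% of all genes fell, and 2061 of 3200 and 1841 of 3199 were below 0. Rrs1, which in yeast brings the particle of 5S ribosomal RNA into the growing large subunit, had 1327, 596 and 760 on the knockout arrays, against 3765, 3453 and 4048 on the wild-type arrays. The groups stood far apart, with means of 894 ± 384 and 3755 ± 298 (SD, n = 3 each), and the knockout signal was 4.44-fold lower (log2 difference -2.15 ± 0.27 SE, adjusted p = 0.000258). Its second probe set had 1026, 479 and 582 on the knockout arrays, against 4536, 4153 and 4390 on the wild-type arrays (-2.72, adjusted p = 9.47e-05). Rrs1 had the most negative difference of the 38 genes, and its probe sets gave the same direction.

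Rrp1b, a relative of a yeast protein needed for large subunit RNA processing, had 867, 550 and 564 on the knockout arrays, against 1839, 1767 and 1742 on the wild-type arrays. The groups were apart and the knockout signal was 2.76-fold lower (-1.47 ± 0.20 SE, adjusted p = 0.000515). The gene's other 2 probe sets did not follow. One had 1061, 866 and 925 on the knockout arrays, against 926, 951 and 937 on the wild-type arrays, and the other had 934, 872 and 773 on the knockout arrays, against 814, 908 and 801 on the wild-type arrays. Their differences were 0.01 and 0.03, so the lower signal was seen with 1 of 3 probe sets. Averaged over the 3, the difference was -0.47 (adjusted p = 0.0418).

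Ebna1bp2, whose yeast relative acts in large subunit assembly, also fell (-0.61, adjusted p = 0.0128), as did Nop16 (-0.74, adjusted p = 0.024) and Wdr12 (-0.67, adjusted p = 0.0321). A second probe set of Ebna1bp2 (-1.01) and of Wdr12 (-0.72) above the filter did not pass. Wdr12 forms a complex with Bop1 and Pes1 that large subunit maturation requires. Its partners did not pass the test, with Bop1 at -0.63 (95% interval -1.18 to -0.07, adjusted p = 0.0595) and Pes1 at -0.37 (-0.78 to 0.03). Nop2, a methyltransferase of the large ribosomal RNA, was lower on every knockout array than on any wild-type array but missed the threshold (-0.40, adjusted p = 0.0537). Sdad1 had a difference of -0.05 (-0.48 to 0.38).

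**Figure D4:**
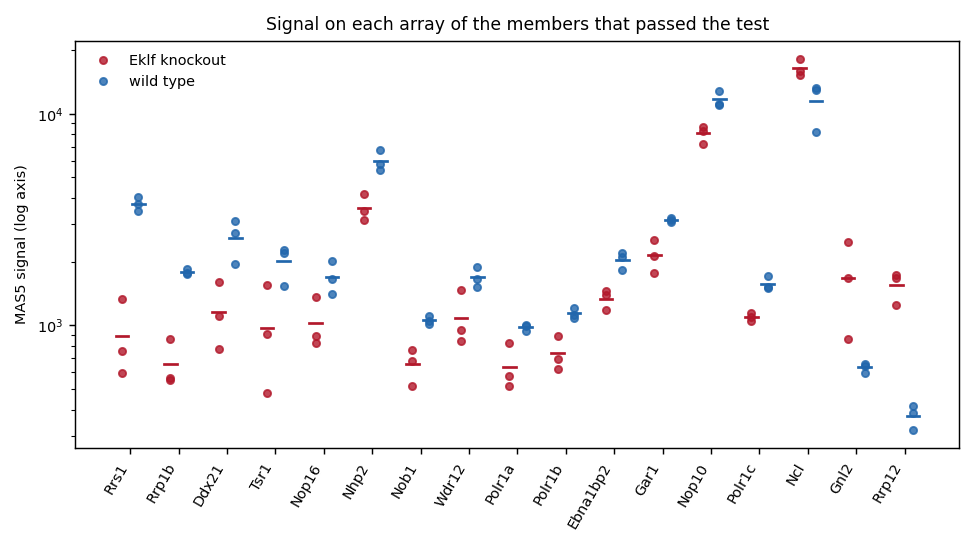
Signal of each gene that passed the test on each array (points) with the group mean (bars), on a log axis, with the Eklf -/- arrays left of the wild-type arrays. Groups are apart for all but Tsr1, where knockout array 1 (1544) lies above wild-type array 3 (1531).

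Small subunit factors went both ways. Of 9 genes, 1 rose and 2 fell, and the median was -0.08. Rrp12, which in yeast helps export both subunits from the nucleus, had 1244, 1677 and 1725 on the knockout arrays, against 384, 322 and 415 on the wild-type arrays. The groups were far apart, with means of 1549 ± 265 and 374 ± 47.5 (SD, n = 3 each), and the knockout signal was 4.12-fold higher (2.04 ± 0.20 SE, adjusted p = 7.11e-05), the most positive difference of the 38. The gene has 1 probe set, so no second one bears on this value. Scaled to the hybridisation controls, the difference was 0.70 (adjusted p = 0.334). Nob1, the nuclease that makes the final cut of the small subunit's RNA, had 518, 767 and 679 on the knockout arrays, against 1053, 1016 and 1103 on the wild-type arrays. The groups did not overlap (-0.71 ± 0.19, adjusted p = 0.0141).

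Tsr1, which in yeast acts late in small subunit assembly, fell by 1.17 on the log2 scale (adjusted p = 0.0267), with knockout signals of 1544, 478 and 908 and wild-type signals of 2208, 2277 and 1531. Its groups overlapped, and without knockout array 2 the difference was -0.74 (adjusted p = 0.07). Its other probe set, at -0.39, did not pass (adjusted p = 0.261), nor did the average of both, at -0.78 (adjusted p = 0.0645). The other 6 genes, among them the early processing factors Heatr1, Utp18, Utp20, Wdr43 and Nop14, had differences of -0.29 to 0.08 and did not pass the test. Bysl, a late factor, had -0.03 (-0.46 to 0.41). A second probe set of Wdr43, at -0.81, did not pass (adjusted p = 0.0543 over all probe sets). One further probe set of Heatr1 was higher, with 444, 310 and 400 on the knockout arrays, against 111, 116 and 255 on the wild-type arrays (1.36, adjusted p = 0.0161), while its brightest had a difference of -0.29 that did not pass the test.

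Among the 7 general nucleolar proteins, 2 rose, 1 fell, and the median was 0.07. Ddx21, an RNA helicase that works with RNA polymerase I, had 1596, 776 and 1112 on the knockout arrays, against 3129, 2724 and 1950 on the wild-type arrays. The groups did not overlap (-1.20 ± 0.28, adjusted p = 0.00667), but a second probe set of the gene had a difference of 0.15 and did not pass, and averaging its probe sets gave -0.52 (adjusted p = 0.0876). Gnl2, a GTPase whose yeast relative releases the large subunit from the nucleus, had 1682, 2472 and 858 on the knockout arrays, against 646, 658 and 599 on the wild-type arrays. The knockout arrays were spread widely and all lay above the wild-type arrays, with a 2.41-fold higher signal (1.27 ± 0.33, adjusted p = 0.0116). One of its other probe sets was also higher (1.55, adjusted p = 0.00876) and another, at 0.31, did not pass. Centred on array medians, the difference of Gnl2 was 0.45 (adjusted p = 0.262), and scaled to the hybridisation controls it was -0.07 (adjusted p = 0.933).

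Ncl, nucleolin, the abundant RNA-binding protein of the nucleolus, had 15846, 15225 and 18093 on the knockout arrays, against 12884, 13196 and 8224 on the wild-type arrays. The groups did not overlap, and the difference of 0.55 ± 0.20 lay just inside the threshold (adjusted p = 0.0483). It missed the threshold in 13 of 20 alternatives, among them the leaving out of any knockout array and of wild-type array 1 or 3, and was -0.27 after median centring and -0.79 after scaling to the hybridisation controls. In the fit over all probe sets, 0 of the 5 Ncl probe sets passed. The brightest, used above, had an adjusted p of 0.0528 there, and the 4 others had differences of -0.36 to 0.64. Npm1, nucleophosmin, did not pass the test (0.33, 95% interval -0.15 to 0.80), nor did Nolc1 (-0.40), a chaperone of the nucleolar particles, Mybbp1a (-0.17) or the GTPase nucleostemin, Gnl3 (0.07). One further probe set of Nolc1 was lower (-1.28, adjusted p = 0.00426).

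Probe sets of a gene often differed. Of the 78 probe sets, 71 passed the filter on dim signal, and of these 19 fell and 5 rose, against 17.5% and 27.3% of the 22599 probe sets tested. Of the 24 genes with several probe sets above the filter, 10 had differences of both signs. In the fit over probe sets, 10 of the 24, Ncl among them, had 0 probe sets that passed the test. A further 11, Rrs1 and Nop10 among them, had at least 1 lower and 0 higher. Gnl2 and Heatr1 had higher probe sets and 0 lower, and Polr1a had both.

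**Figure D5:**
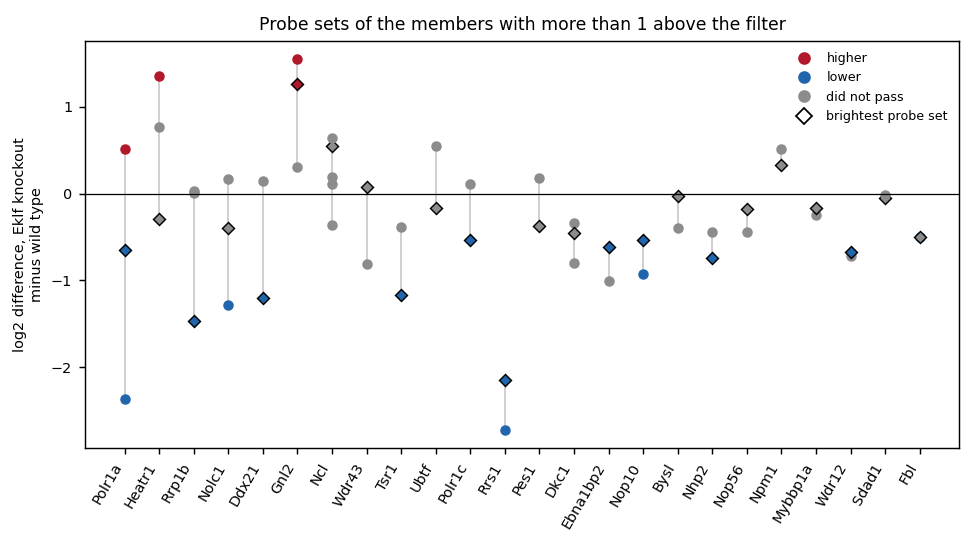
Log2 difference (Eklf -/- minus wild type) of every probe set above the filter for the genes with several, red where higher and blue where lower at an adjusted p under 0.05 over all probe sets, with a diamond for the brightest probe set. Both Rrs1 probe sets lie below -2, Polr1a has points that pass on either side of 0, and Rrp1b has 1 point at -1.47 and 2 near 0.

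The rest of the pathway was read from a list of 124 further genes, of which 119 were tested and Polr1f, Polr1g, Polr1h, Mrto4 and Snu13 were not analysed here. Of the 119, 33 fell (27.7%), 4 rose (3.36%), and the median was -0.26. Over all genes, 20.8% fell and 27.9% rose. The top bin of brightness holds 46 of the 119 and the next 55. In these bins 35.3% and 27.9% of all genes fell and 15.1% and 16.8% rose. The share of the 119 that fell was thus near that of genes as bright. By list, the share that fell was 37.5% for RNA polymerase I, 53.3% for the exosome and nucleases and 20.0% for large subunit factors. For small subunit factors it was 28.2% and for particle assembly 16.7%. Of 8 other genes of RNA polymerase I, 3 fell and 0 rose. Polr1d, a subunit shared with RNA polymerase III, had 3492, 3672 and 3368 on the knockout arrays, against 7106, 6813 and 7465 on the wild-type arrays, without overlap (-1.02 ± 0.14, adjusted p = 0.000374), and Polr1e (-0.82) and Tcof1 (-0.63) were the others. Of 15 genes of the RNA exosome and other nucleases, which trim the precursors, 8 fell and 0 rose, led by the exosome subunits Exosc1 (-1.53), Exosc9 (-1.24) and Exosc5 (-1.16). Of 45 large subunit factors, 9 fell and 0 rose, led by Urb2 (-1.52), Tex10 (-1.25) and Mdn1 (-1.22), a giant ATPase that strips factors from the subunit. Of 39 small subunit factors, 11 fell and 2 rose, led by Nol11 (-1.10), Wdr36 (-0.99) and Riok1 (-0.91) among those that fell, while Noc4l (0.74) and Tsr3 (0.94) rose. Of 12 genes for the assembly of nucleolar particles, Naf1 (means of 1039 and 2091) and Ruvbl1 (-0.55) fell, while Ruvbl2 (0.48) and Fbll1 (1.01), a relative of fibrillarin, rose.

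Myc, the transcription factor known to drive this pathway, had 2366, 1632 and 2183 on the knockout arrays, against 3232, 3592 and 3347 on the wild-type arrays. The groups did not overlap (-0.73 ± 0.17, adjusted p = 0.00769). Of 11 genes of the Myc network, 4 fell (36.4%) and 1 rose (9.09%), against 20.8% and 27.9% of all genes tested. The median was -0.50. The 4 were Myc, Mycn (-1.59, with overlapping groups), and Mnt (-1.18) and Mxd4 (-1.72), a pair of repressors that share Myc's partner protein. Mycl rose (1.11, adjusted p = 0.0268).

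In the deposited scaling, most of the cytosolic ribosomal protein genes that were tested rose. Genes without a probe set of their own could not be tested. Of 42 cytosolic ribosomal protein genes tested, 27 rose (64.3%, against 27.9% of all genes tested). The 2 that fell were Rps25 (-0.87) and Rps6 (-0.64), or 4.76% against 20.8% of all genes. Against -0.40 for the 38 biogenesis genes, the median of the 42 ribosomal protein genes was 0.65. The median of these genes turned to -0.06 after quantile normalization, -0.17 after median centring and -0.69 after scaling to the hybridisation controls, while the median of the 38 minus this median was -1.34 to -0.20 over the 20 alternatives. Genes with a mean log2 signal of at least 13, many of the cytosolic ribosomal protein genes among them, numbered 252. They had a median difference of 0.11, with 69 higher and 49 lower. Their median signal was 11991, against 24200 for the cytosolic ribosomal protein genes, so the 252 are neither a separate nor an equally bright set. Of 76 mitochondrial ribosomal protein genes, 14 fell (18.4%) and 4 rose (5.26%), against 20.8% and 27.9% of all genes tested. Their median was -0.14.

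Of the 17 calls among the 38 genes, those of Rrs1, Rrp1b and Nob1 held in each of 20 alternatives of scaling, filter, probe set choice, variance model and arrays left out, though Rrp1b only at -0.47 with its probe sets averaged. Rrp12 and Nhp2 kept theirs in 19, Gnl2 and Ddx21 in 18, Nop10 in 17 and Polr1b in 16. The remaining 8 kept theirs in 7 to 14 of 19 or 20, Ncl in the fewest. Nob1, Rrp12, Polr1b and Gar1 have 1 probe set each, so the alternatives of probe set choice could not change their differences.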

How the data were processed

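RNA from sorted fetal liver cells of 3 Eklf -/- and 3 wild-type embryos, 10 micrograms each per the labels' protocols, was read on 6 single-colour Affymetrix arrays. The table deposited by the authors gives each probe set's intensity, unlogged. The submitters' processing notes name MAS5 and Affymetrix Expression Console, and the version of neither is given in the sources used here. In the deposited table every array has the same trimmed mean. Signals under 1 (303 values) were set to 1 and log2 was taken. Of the 45101 probe sets, the platform annotation gave 34958 to 1 gene and 932 to several, and 9211 were not listed. Symbols were updated through Entrez IDs, which matched for 34754.

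For each gene, the probe set of highest mean log2 signal was used. Probe sets under the 40th percentile of that mean (log2 6.62, a signal of 98.6) were left out, which kept 12799 genes and all 38 described here. The difference was fitted with limma 3.58.1 in R 4.3.3 (lmFit, eBayes with a variance trend) on the 6 arrays. The p-values were adjusted by Benjamini and Hochberg over all genes, and "rose" or "fell" means an adjusted p under 0.05. A second fit took the 22599 probe sets above the filter. The fit was tested on simulated data with 50 genes changed at each size. It recovered 32% and 38% of log2 changes of -1 and 1, and 68% and 76% of changes of -2 and 2. Of 113 calls, 6 were false. Far fewer genes changed there than were called here, so the shares recovered may differ. A gene that did not pass may thus still have changed. Python 3.11.15 with matplotlib 3.10.9 drew the figures.

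The genes and lists were chosen with earlier results of these data known. In each role the signals on every array are given for the 2 genes with the smallest adjusted p and for genes with opposite calls. From the other lists the 3 called genes with the most negative and the most positive difference are named. Other array values, Myc, Rps25 and Rps6 were added after their values were seen. Alternatives changed the scaling, offset, filter, variance model, probe set choice, pairing and arrays used. Arrays with the same replicate number were checked for shared deviations from their group means (r = 0.0811, 0.0357 and 0.0901). As these were not all over 0.1, the numbers were not taken to pair the arrays. Hybridisation dates were not given in the sources used here, so batches could not be examined.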

Additional observations from a re-analysis of the deposited data

Results flagged for a closer look

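The control probe sets for 18S ribosomal RNA, the product of the pathway described above, carry a signal that is no part of the comparisons. The 3′ probe set averaged 49776 ± 16993 on the Eklf -/- arrays and 127 ± 67.7 on the wild-type arrays (SD, n = 3 each), 391-fold higher in the knockout. The 5′ probe set averaged 21983 ± 15010 on the Eklf -/- arrays and 63.8 ± 37.1 on the wild-type arrays, and the middle one 19434 ± 17042 and 31.1 ± 34.8, 345-fold and 625-fold higher. On the middle probe set Eklf -/- array 1 read 1431, against 35315 and 21556 on the other two knockout arrays. The 3′ to 5′ ratios of Gapdh, a sign of RNA integrity, were 0.797 to 0.854 on the Eklf -/- arrays and 0.819 to 0.881 on the wild-type arrays. What the signal comes from was not tested.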

How the results depend on the processing

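With 3 arrays a group, detection calls not used here and groups that differ in median signal and in hybridisation controls, counts depend on the scaling. Over 756 results for the 38 genes under the alternatives, 575 kept direction and side of the threshold, 73 lost the call, 48 gained one and 60 changed sign. The cause of a change was not tested. Pairs below are higher and lower counts, in the order of the 38 genes (3 and 14 as deposited), their probe sets (5 and 19), the 119 other pathway genes (4 and 33), the Myc network (1 and 4), cytosolic (27 and 2) and mitochondrial ribosomal proteins (4 and 14).

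Median centring gave 1 and 32, 1 and 53, 0 and 93, 0 and 8, 0 higher, and 0 and 59, with a median of the 38 of -1.21. Over all genes it gave 1085 and 6133, against 3571 and 2661 as deposited. Scaling to the hybridisation controls, added after seeing the data, gave 0 and 29, 0 and 43, 0 and 79, 0 and 8, 0 and 5, and 0 and 48, a median of -1.74, and 250 and 5675 over all genes. Quantile normalization gave 8 lower of the 38, 2 higher probe sets, 8 higher other genes, 0 higher of the Myc network, 5 and 4 cytosolic and 12 and 9 mitochondrial. Cyclic loess gave 7 lower of the 38, 9 higher other genes, 0 higher of the Myc network, 1 lower cytosolic, and 11 and 8 mitochondrial. The loess left 2292 genes higher in all and quantile normalization 2248.

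An adjusted p under 0.01 gave 1 and 4, 2 and 8, 21 lower other genes, 0 and 2, 6 and 0, and 2 and 5. With Eklf -/- array 1 as the lone knockout array, assumed to vary like the wild-type group and added after seeing the data, the counts were 3 lower of the 38, 2 and 5, 1 and 7, 0 and 2, 0 and 1, and 1 and 2, and the median was -0.12. Array weights gave 34 lower probe sets, 7 and 51 other genes and 9 higher mitochondrial. Without a variance trend 12 probe sets were lower and 17 cytosolic genes higher. Averaging probe sets gave 8 higher other genes, 1 lower of the Myc network and 7 lower mitochondrial. The probe set of largest variance gave 12 higher other genes, 3 higher of the Myc network, 4 lower cytosolic, and 8 and 9 mitochondrial. A filter at the 60th percentile gave 0 higher of the Myc network.

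Leaving out 1 array at a time gave 2 to 3 and 6 to 19 for the 38, 3 to 6 and 10 to 28 for their probe sets, 3 to 7 and 24 to 40 for the other genes, 0 to 1 and 2 to 4 for the Myc network, 9 to 37 and 0 to 2 for the cytosolic and 2 to 8 and 9 to 17 for the mitochondrial genes. The median of the 38 ran from -0.48 to -0.27. With the replicate block, 3 of the 38 were higher and 15 lower, and 4 probe sets were higher and 23 lower. The correlations of same-numbered arrays were under 0.1, too low to take the numbers as pairs, but each array correlated best with its own number, a hint from the data and not from the design.

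Klf1 was -1.20 after median centring (adjusted p = 0.0128), -1.72 after scaling to the controls (adjusted p = 0.0106), 0.22 with the lone array (adjusted p = 0.641) and -0.68 to -0.01 with 1 array left out. Signs changed mostly for genes that had not passed the test. Median centring gave Ncl -0.27, Nop58 -0.53, Npm1 -0.49, Rrn3 -0.68, Utp20 -0.75, Gnl3 -0.75 and Wdr43 -0.74, and medians of -0.17 for cytosolic ribosomal proteins and -0.68 for all genes. Control scaling gave Ncl -0.79, Nop58 -1.06, Npm1 -1.01, Rrn3 -1.20, Utp20 -1.27, Gnl3 -1.27, Gnl2 -0.07 and Wdr43 -1.26, and medians of -0.69 and -1.20. Quantile normalization gave Nop56 0.07, Ubtf 0.07, Bysl 0.05, Mybbp1a 0.08 and Sdad1 0.01, with medians of -0.06 for cytosolic and 0.04 for mitochondrial ribosomal proteins and -0.02 for all genes. Cyclic loess gave Nop56 0.06, Ubtf 0.07, Bysl 0.08, Mybbp1a 0.07, Sdad1 0.05 and a mitochondrial median of 0.03. The lone array gave Nop56 0.02, Dkc1 0.03, Ubtf 0.09, Utp18 0.16, Rrp9 0.28, Bysl 0.24 and Heatr1 0.03. Array weights gave Nop58 -0.13, Rrn3 -0.01, Utp20 -0.17, Bysl 0.02, Gnl3 -0.26 and Wdr43 -0.09. The mean of probe sets gave Ubtf 0.19, Wdr43 -0.37 and Heatr1 0.61, and the probe set of largest variance Ubtf 0.55, Wdr43 -0.81 and Heatr1 1.36. The median of all genes was -0.06 with the stricter filter. With 1 array left out, Bysl ran from -0.16 to 0.09, Gnl3 from -0.21 to 0.24, Nop14 from -0.29 to 0.04, Nop58 from -0.18 to 0.54, Rrn3 from -0.10 to 0.37, Sdad1 from -0.22 to 0.05, Ubtf from -0.30 to 0.00, Utp20 from -0.16 to 0.21 and Wdr43 from -0.15 to 0.23.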
